A study of Mus musculus with 2 samples.

Results

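Among single cells isolated from mouse ileal epithelium, a small number carried the transcripts of T cells or B cells. A cell was taken as a lymphocyte when it held at least 1 UMI (unique molecular identifier, the tag that marks 1 captured transcript) of 3 or more of 10 genes, Ptprc, Coro1a, Cd3e, Cd3d, Cd3g, Cd8a, Nkg7, Cd79a, Cd79b and Ms4a1, and no UMI of the tuft cell channel gene Trpm5. It was called a T cell where the UMIs of Cd3e, Cd3d, Cd3g and Nkg7 together exceeded those of Cd79a, Cd79b and Ms4a1, and otherwise a B cell. The cells were thus chosen by measured UMIs of these genes, whose values are given as a description. In all, 169 of 5408 cells met this rule, 140 of 3402 in the WT library (76 T and 64 B) and 29 of 2006 in the *Tipe0*-/- library (16 T and 13 B). The description rests mainly on WT.

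Both libraries came from the ileum of C57BL/6 mice aged 8 weeks. One was from wild type (WT) mice and the other from mice of the genotype TNFAIP8-/-, called *Tipe0*-/- here after the other name of the gene. The study pooled 3 mice per genotype into 1 library, and nothing in the counts assigns a cell to a mouse, so no test between genotypes or cell types was possible, and the intervals given below cover counting error only. WT held 38127808 UMIs (median 7760 per cell, lowest 3247) and *Tipe0*-/- 23897126 (median 7307.5, lowest 3562). Tnfaip8, the deleted gene, was counted at 9.76 CPM (UMIs of the gene per 1000000 UMIs of all genes) over all WT cells (372 UMIs) and at 2.39 CPM over all *Tipe0*-/- cells (57 UMIs). Whether the counted 3′ ends lie inside the deleted part was not given in the sources used here. The libraries shared 9 cell barcodes, of which 3 were WT lymphocytes and none was a *Tipe0*-/- lymphocyte. The labels name the tissue as enterocytes, and 97.8% of WT cells did carry a UMI of the epithelial adhesion gene Epcam.

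Intraepithelial lymphocytes are T cells that sit between the epithelial cells of the gut. Many carry CD8 and store granzymes, proteases that are released into target cells, and they are held in place by an integrin that binds E-cadherin on the epithelium. B cells of the ileum gather mainly in the lymphoid follicles of Peyer's patches, where germinal centres select dividing B cells, and plasma cells secrete IgA, which the J chain joins into dimers. The T cell receptor signals through the CD3 chains and the B cell receptor through CD79A and CD79B.

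The promoters of a CD3 chain, of both granzymes and of the B cell gene Vpreb3 are shown because these genes separated the T and B cells below. Each is the 250 bases before the RefSeq gene start (GRCm38.p6), written 5′ to 3′ on the strand of the gene. Capitals mark a match, on either strand, to an ETS site (ACAGGAAG or its complement CTTCCTGT), a RUNX core (TGTGGT or ACCACA) or the octamer (ATTTGCAT or ATGCAAAT). The ETS site was found in 2.90% of 32851 promoter windows of this length, the RUNX core in 14.0% and the octamer in 1.60%. The match in the Cd3e window begins 17 bases before the gene start, and 16 bases of that window lie in an exon of the GENCODE annotation.
Cd3e, chr9:45009612-45009861, minus strand: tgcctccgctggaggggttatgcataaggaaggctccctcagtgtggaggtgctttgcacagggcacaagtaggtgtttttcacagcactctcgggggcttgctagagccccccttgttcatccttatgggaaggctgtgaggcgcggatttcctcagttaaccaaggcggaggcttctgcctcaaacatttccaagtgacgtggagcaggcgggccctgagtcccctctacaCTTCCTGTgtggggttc
Gzma, chr13:113100982-113101231, minus strand: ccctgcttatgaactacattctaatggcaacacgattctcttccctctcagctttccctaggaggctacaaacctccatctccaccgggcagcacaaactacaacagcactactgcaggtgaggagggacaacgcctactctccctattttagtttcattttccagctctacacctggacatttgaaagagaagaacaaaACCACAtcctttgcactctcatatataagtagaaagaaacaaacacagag
Gzmb, chr14:56262335-56262584, minus strand: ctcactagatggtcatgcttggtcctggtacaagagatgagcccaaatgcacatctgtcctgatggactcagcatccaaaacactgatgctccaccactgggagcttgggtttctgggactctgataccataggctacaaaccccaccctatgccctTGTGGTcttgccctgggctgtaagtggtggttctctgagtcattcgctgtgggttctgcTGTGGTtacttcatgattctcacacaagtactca
Vpreb3, chr10:75948050-75948299, plus strand: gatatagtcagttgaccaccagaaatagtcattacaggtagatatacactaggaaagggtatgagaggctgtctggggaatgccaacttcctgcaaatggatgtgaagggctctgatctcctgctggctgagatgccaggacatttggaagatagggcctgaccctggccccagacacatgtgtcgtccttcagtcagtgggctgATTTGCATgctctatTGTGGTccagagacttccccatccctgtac
The Gzmb window holds 2 RUNX cores, and the Vpreb3 window holds an octamer and a RUNX core. A match is a description of the letters and not of binding.

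The defining markers separated T from B cells by construction. Cd3e (chr9:44998740-45009627) and its neighbours Cd3d (chr9:44981786-44987339) and Cd3g (chr9:44969572-44980431) gave 83, 84 and 91 UMIs in the 76 WT T cells, and 1, 0 and 0 in the 64 B cells. Cd79a (chr7:24897381-24902197) gave 131 UMIs in B cells and 1 in T cells, and Ms4a1 (chr19:11249675-11266241), which encodes CD20, gave 157 and 2. Ptprc, the pan-leukocyte phosphatase CD45, was counted at 191 CPM in T cells, 184 CPM in B cells and 6.09 CPM in all other WT cells. These genes chose the cells, so the values describe the choice. With Nkg7 left out of the T sum, the T share of the WT lymphocytes was 48.6% instead of 54.3%, so some T calls rest on Nkg7. T and B UMIs occurred together in 12 WT lymphocytes, 3 of them without an Epcam UMI, and the sums were equal in 5, which the rule placed among the B cells. In 2 of these 5 both sums were 0, and these cells, which carried Epcam, held all 6 Cd8a UMIs and 5 of the 6 Cd7 UMIs counted in the B cells.

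Most lymphocyte barcodes also held epithelial RNA. In WT, 48 of 76 T cells (63.2%, exact binomial 95% interval 51.3 to 73.9) and 38 of 64 B cells (59.4%, 46.4 to 71.5) carried an Epcam UMI, against 99.4% of the 3262 other cells. A list of 12 epithelial genes, with Krt8 its most abundant member, was lower in T cells without an Epcam UMI than in most of those with one, and the ranges overlapped at their low end. It took a median of 3.28 of each 10000 UMIs (0 to 10.2) in the 28 T cells without an Epcam UMI and 103 (2.08 to 226) in the 48 with one, where the median of the other cells was 123. Epcam is itself on this list, and without it the medians were 3.28 and 91.8. In the 26 B cells without Epcam the median was 2.93 (0 to 21.6), and in the 38 with Epcam 83.5 (2.81 to 233, lower quartile 27.1). The ranges of the B cells overlapped as well. Few cells lay between: 2 T cells and 3 B cells held 15 to 35 per 10000, while 32 and 33 lay under 15 and 42 and 28 above 35. The list misses barcodes rich in defensin RNA of Paneth cells. Without those that held over 1000 defensin UMIs, 29 T and 32 B cells lay under 15. The median depth was 3967.5 UMIs in T cells without Epcam, 7281 in those with it and 7899 in the other cells. The cells labelled T or B by the rule are therefore given below as a whole and, separately, for the 28 T and 26 B cells without an Epcam UMI. Whether a barcode with both kinds of RNA held 1 cell or several was not tested.

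**Figure D1:**
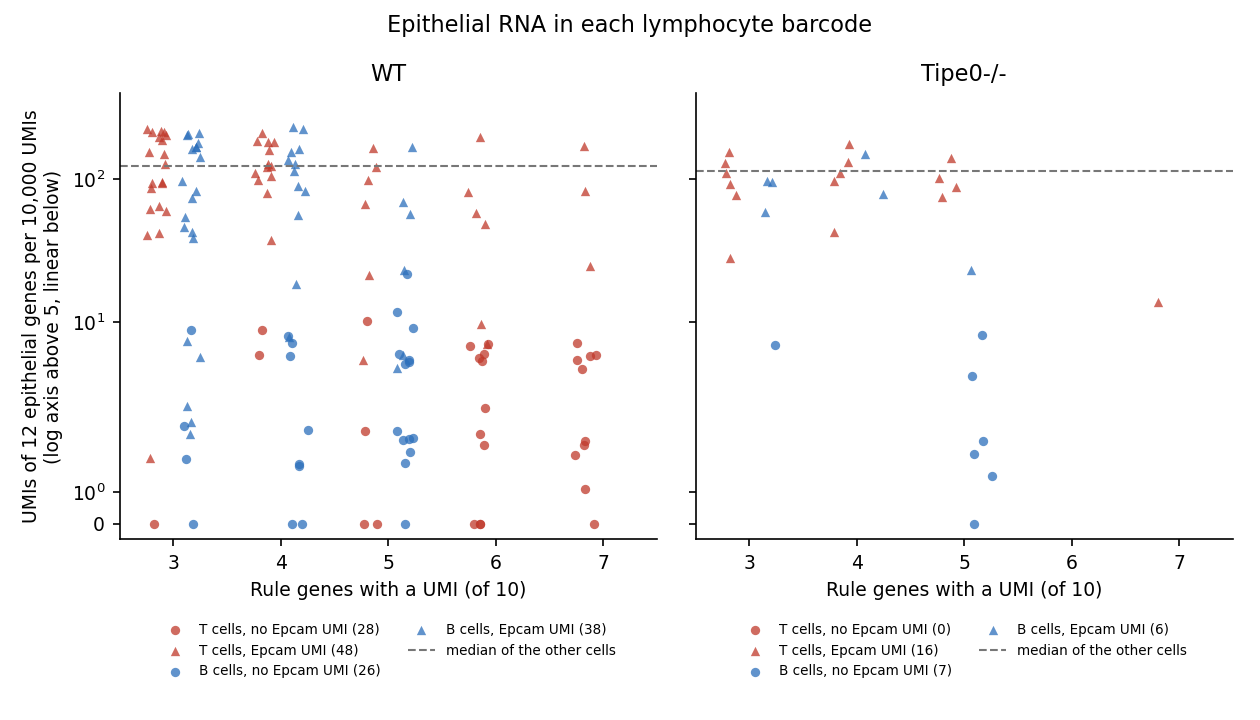
UMIs of 12 epithelial genes per 10,000 UMIs (y axis, log above 5) in each lymphocyte barcode against the number of rule genes with a UMI (x axis), in WT and *Tipe0*-/-. Circles without an Epcam UMI lie at or below 21.6. Most triangles with an Epcam UMI lie nearer the dashed median of the other cells, and some lie as low as the circles. No *Tipe0*-/- T cell is a circle.

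Cells nearer the threshold of the rule carried Epcam more often. Of the 45 WT lymphocytes with exactly 3 rule genes, 88.9% carried Epcam, and of the 13 with 7 rule genes 23.1% did. Just outside the rule lay 65 WT cells with 2 rule genes and no Trpm5 UMI, of which 95.4% carried Epcam. Gzma stood at 74.4 CPM in these 65 cells and at 379, 394 and 406 CPM in those with 3, 4 and 5 rule genes. It stood at 4954 and 10668 CPM in those with 6 and 7, where the median cell held 8 and 13 UMIs of the T genes and 0 of the B genes, so these groups differ in their mix of T and B cells. A further 6 WT cells had 3 or more rule genes but a Trpm5 UMI and were left out.

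Granzymes and the chemokine Ccl5 were among the genes that were higher in T than in B cells. Gzma (chr13:113093825-113100981), a tryptase of cytotoxic granules, summed to 1819 UMIs or 2721 CPM in the 76 WT T cells (Poisson 95% interval 2598 to 2849), 22.6 CPM in B cells and 12.8 CPM in other cells. The log2 ratio of T over B was 6.85 (6.11 to 7.87). Gzmb (chr14:56258838-56262260), which cleaves caspases in target cells, stood at 823 CPM in T and 3.76 CPM in B cells (2 UMIs), a log2 ratio of 7.45 (5.91 to 10.82). Ccl5, which draws in other leukocytes, stood at 2713 CPM in T cells, 95.9 CPM in B cells and 47.0 CPM in other cells. In the T cells without Epcam these levels were higher: 10960 CPM for Gzma, 2963 CPM for Gzmb and 5545 CPM for Ccl5. The T cells with Epcam held 853, 338 and 2072 CPM of the same genes. The log2 ratio of T cells without over with Epcam was 3.68 for Gzma, 3.13 for Gzmb and 1.42 for Ccl5. These ratios are per UMI of all genes, and the T cells with Epcam were deeper. The medians per cell, without and with Epcam, were 32.5 and 5 UMIs for Gzma and 7 and 1 for Gzmb. For Ccl5 they were 14 and 19, so its direction held only per UMI.

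The granzymes were unevenly spread from cell to cell. In the 28 T cells without Epcam, Gzma ranged from 0 through a median of 32.5 to 351 UMIs per cell, and the highest 3 cells held 48.6% of all its UMIs. Gzmb ranged from 0 through 7 to 50, and Ccl5 from 0 through 14 to 83. Every one of the 20 cells with a Gzmb UMI also had a Gzma UMI, and 5 further cells had Gzma without Gzmb. None of Gzma, Gzmb and Ccl5 was found in 2 of the 28. In the 48 T cells with Epcam, Gzma ranged from 0 through 5 to 55 and Ccl5 from 0 through 19 to 107. Ccl4, a chemokine related to Ccl5, was restricted further: 62 of 76 T cells had none, and 3 cells held 67 of its 90 UMIs.

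**Figure D2:**
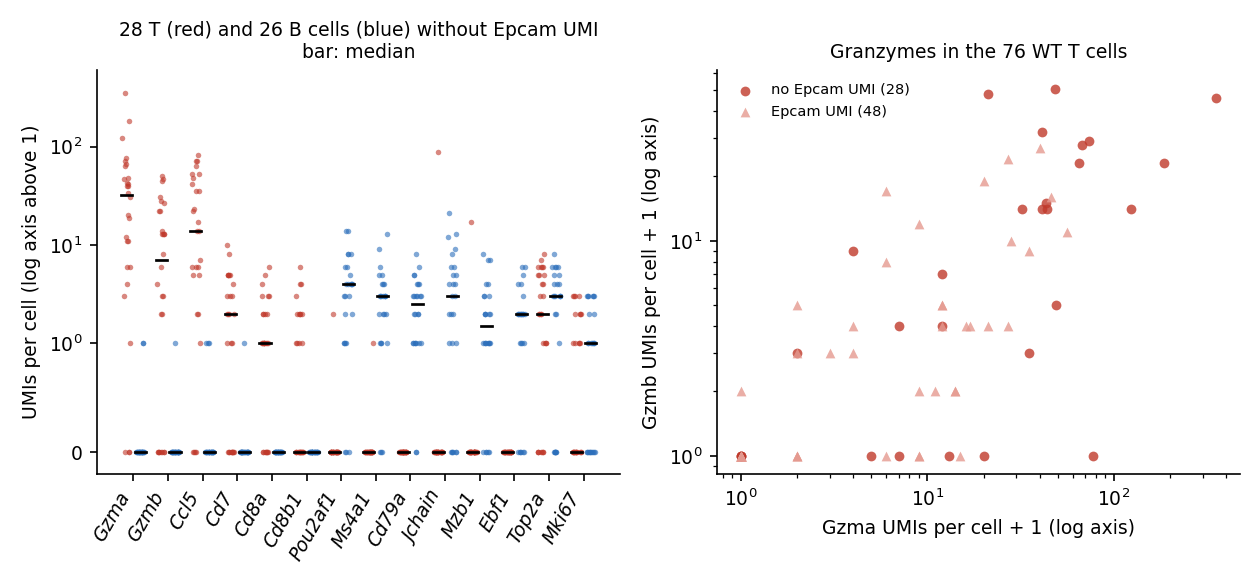
Left, UMIs per cell of 14 genes in the 28 T cells (red) and 26 B cells (blue) of WT without an Epcam UMI, with bars at the medians (log axis above 1). Right, Gzmb against Gzma UMIs plus 1 in each of the 76 WT T cells (log axes); the median T cell without Epcam held 32.5 Gzma and 7 Gzmb UMIs.

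At equal depth the granzymes were still detected in most T cells without Epcam. After each cell was thinned to 3000 UMIs, Gzma was detected in 85.7% of T cells without Epcam (unthinned 89.3%, median depth 3967.5), 3.85% of B cells without Epcam and 2.33% of other cells. Gzmb was detected in 71.4%, 3.85% and 0.981%, and Ccl5 in 85.7%, 3.85% and 8.25%. The shares in B cells and other cells were far lower than in T cells. The other cells are all 3262 barcodes outside the rule, and 21 of them held 20 or more UMIs of Gzma, Gzmb and Ccl5 together. Of the 11 genes on the cytotoxic granule list, 6 had enough UMIs to compare (20 in T and B cells together) and 5 of these, the rule gene Nkg7 included, were at least 4-fold higher in T cells, the threshold used for T against B. Over all genes compared, 78 of 5804 were at least 4-fold higher in T cells (1.34%) and 68 at least 4-fold lower (1.17%), and since the rule used this contrast nothing is read from the difference. The exception on the list was Srgn, the granule proteoglycan, at 157 CPM in T and 71.5 CPM in B cells. In the cells without Epcam, 5 of the 11 genes could be compared and all 5 were at least 4-fold higher in T cells. Prf1, which encodes perforin, gave 1 UMI in all T cells, and Gzmm and Gzmc gave none, which allows up to 4.49 CPM for each (3 counts of the total).

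A CD8 chain was detected in 23 of the 28 T cells without Epcam, a count that the rule gene Cd8a raises. Cd8a (chr6:71373427-71379173), a rule gene and the chain of both CD8 forms, was detected in 20 of the 28 T cells without Epcam (71.4%, 51.3 to 86.8), and Cd8b1 (outside the rule, chr6:71322788-71337494), the chain found only in the CD8 alpha-beta form, in 13 (46.4%, 27.5 to 66.1). Both were detected in 10 cells, Cd8a alone in 10, Cd8b1 alone in 3 and neither in 5. Cd4 was detected in 0 of 28, which allows a share of up to 10.7% for cells with a UMI and does not limit cells that express the gene, and in 3 of the 48 T cells with Epcam. Cd8a alone does not separate an alpha-alpha cell from an alpha-beta cell in which Cd8b1 was missed: at 3000 UMIs per cell Cd8a fell to 53.6% and Cd8b1 to 42.9%. In other cells the thinned shares were 0.184% and 0.215%. Constant region genes of the T cell receptor were not analysed here, so alpha-beta and gamma-delta T cells could not be separated.

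The T cell receptor and signalling genes that could be compared were higher in T than in B cells. On the list of 14 such genes, 9 had enough UMIs in T and B cells together, and 5 did not. All 9 were at least 4-fold higher in T cells, the 3 CD3 genes of the rule included. Those 3 made the T call, so their part of the count describes the choice. The 5 genes left out could not show whether the whole list followed CD3. Lat, the adaptor that the activated receptor recruits, stood at 117 CPM in T cells and 1.88 CPM in B cells (1 UMI), a log2 ratio of 5.38 (3.43 to 11.28). Lck, the kinase that starts the signal, stood at 147 and 30.1 CPM, so B cells held some. Cd7, a surface glycoprotein of T and NK cells, stood at 184 and 11.3 CPM, the latter mostly from the 2 cells without T or B sums named above. Thy1, a surface anchor protein of mouse T cells, gave 70 UMIs in T cells and 0 in B cells and was at least 18.6-fold higher. Cd6, Fyb, P2rx7 and Actn2 gave 26, 32, 28 and 34 UMIs in T cells and none in B cells.

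Genes of tissue residence and of NK-type receptors were found in the T cells. Itgae, the alpha E integrin chain that binds E-cadherin, gave 37 UMIs (55.3 CPM) in T cells and 1 in B cells. Its partner chain Itgb7 gave 49 and 1, and the gut homing receptor Ccr9 gave 49 and 3. Detection of Itgae at 3000 UMIs per cell was 39.3% in T cells without Epcam, 0 of 26 in B cells without Epcam (up to 11.5%) and 0.337% in other cells. The residence list had 4 of 9 compared genes at least 4-fold higher in T cells and none lower, and Cd69 was detected in both kinds of cell, with 10 UMIs in T and 7 in B cells. Cd160, an inhibitory and co-stimulatory receptor, and Klrd1, the CD94 chain of NK receptors, gave 48 and 54 UMIs in T cells and none in B cells, at least 12.7-fold and 14.3-fold higher. On the NK-type list 4 of 5 compared genes passed 4-fold, and 4 of 4 did in the cells without Epcam. Fcer1g, an adaptor chain, was among the genes held by few cells, with 55 UMIs in 15 of 76 T cells.

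Among transcription factors, Id2 (135 against 16.9 CPM) and Ikzf2 (83.8 against 3.76 CPM), which encodes Helios, were higher in T than in B cells. Bcl11b, which keeps T cell identity, gave 62 UMIs in T and 8 in B cells. These were the 3 of 8 compared factors past 4-fold, and Runx3, a factor of CD8 T cells, had a log2 ratio of 1.37 (0.42 to 2.54). Tbx21 gave 6 UMIs, Eomes 2 and Tcf7 4 in all T cells. Effector cytokines were sparse: Ifng gave 7 UMIs in 4 T cells, Xcl1 gave 18 in 7, and Tnf gave 2. All 7 inhibitory receptors on the list together gave 33 UMIs, of which Cd96 held 17, and none had enough UMIs to compare. Among genes of the immediate early response to stimulation or dissociation, 1 of 9 passed 4-fold, Nr4a1, which antigen receptor signals induce, with 19 UMIs in T and 1 in B cells. Fos gave 28 and 16, and Junb 35 and 17. Of 6 cytokine receptors compared, Il2rb alone passed, with 18 and 3 UMIs.

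**Figure D3:**
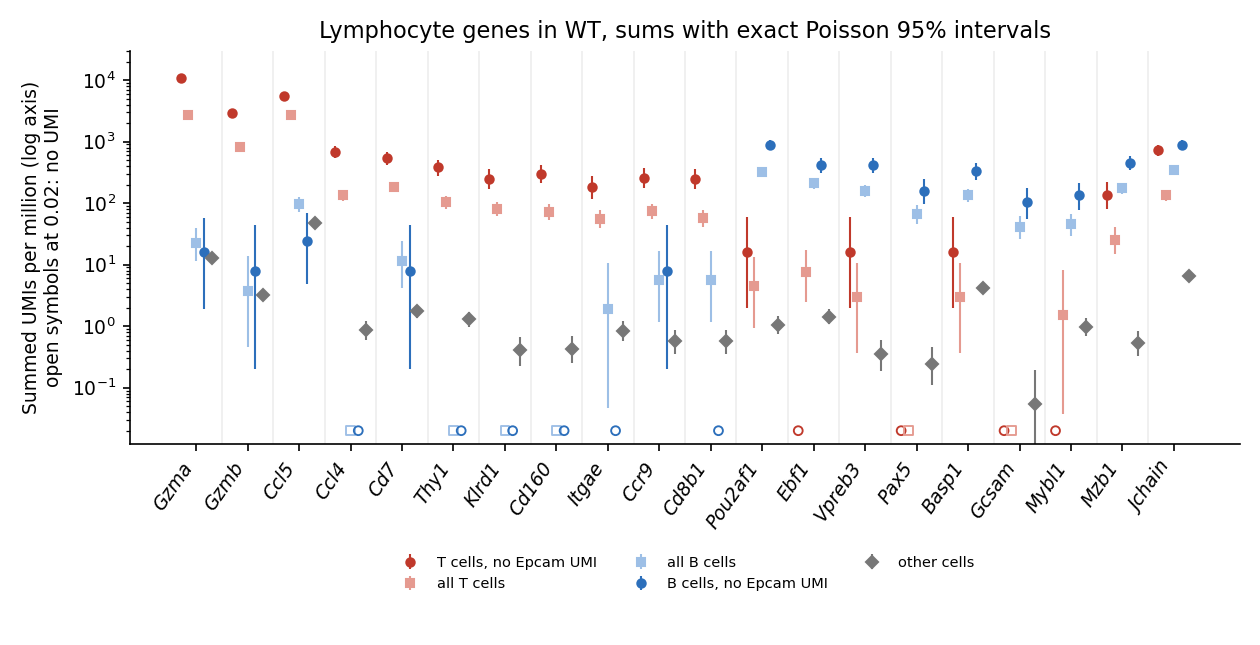
Summed UMIs as CPM (log axis) of lymphocyte genes in WT for all T cells, T cells without Epcam, all B cells, B cells without Epcam and other cells, with exact Poisson 95% intervals and open symbols at the bottom for groups with no UMI. Gzma reaches 10960 in T cells without Epcam and Pou2af1 reaches 873 in B cells without Epcam.

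B cell identity genes were found in the B cells and hardly in the T cells. Pou2af1, the co-activator that works with octamer-binding factors in B cells, summed to 173 UMIs or 325 CPM in the 64 WT B cells (279 to 378) and 4.49 CPM in T cells (3 UMIs), a log2 ratio of T over B of -5.96 (-8.47 to -4.61). In B cells without Epcam it stood at 873 CPM, from 0 through 4 to 14 UMIs per cell, and 23 of 26 cells held it. Ebf1, an early B lineage factor, stood at 209 CPM in B and 7.48 CPM in T cells. Pax5, which holds B cell identity, gave 35 UMIs in B cells and 0 in T cells, so it was at least 14.7-fold higher. Vpreb3, the gene with the octamer above, gave 84 UMIs in B cells and 2 in T cells.

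By list, 6 of 7 compared genes of the B cell receptor and its co-receptors and 5 of 7 B cell transcription factors were at least 4-fold lower in T than in B cells, and none was higher. The first count includes the rule genes Cd79a, Cd79b and Ms4a1. Irf8 and Foxp1, factors of several blood lineages, were the transcription factors that did not pass, with 77 and 46 UMIs in T cells and 89 and 37 in B cells. The other WT cells also held transcripts of this list, 247 CPM in sum, and the part of epithelial RNA in these counts was not tested. In the cells without Epcam, 4 of the 8 factors could be compared and all 4 were at least 4-fold lower in T cells. Outside these lists, Plekho1, Scimp and Rasgrp3 were among the genes with the widest gaps, with 41, 40 and 33 UMIs in B cells and 0 in T cells. Rasgrp3 activates Ras below the B cell receptor and Scimp is an adaptor of antigen-presenting cells. Without the Epcam-bearing cells, 86 of 1831 genes were at least 4-fold higher in T (4.70%) and 44 lower (2.40%). The genes named next were chosen after their values were seen. On the B side they included Ebf1, Tcf4, Tnfrsf13c (the BAFF receptor) and Blnk (the linker of the B cell receptor), with 52, 34, 24 and 23 UMIs against 0. On the T side they included Emp3, Selplg (the ligand of selectins) and Sh2d2a, with 39, 38 and 34 against 0.

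Germinal centre genes were found in B cells, more often in those without Epcam. Of 15 genes on the list, 9 could be compared over all T and B cells and 8 were at least 4-fold lower in T cells. In the cells without Epcam only 1 of the 15 had enough UMIs to compare, and it was at least 4-fold lower in T cells. Basp1 stood at 134 CPM in B and 2.99 CPM in T cells, Mybl1 at 45.1 CPM in B cells with 1 UMI in T cells, and S1pr2, the receptor that keeps B cells in the follicle centre, at 37.6 and 2.99 CPM. Gcsam, named for germinal centre B cells, gave 22 UMIs in B cells, 0 in T cells and 2 in all other WT cells. At least 3 of the 15 genes were detected in 39 of 64 B cells, in 21 of the 26 without Epcam and in 0 of 76 T cells (up to 3.95%). After thinning to 3000 UMIs this held for 22 of 64 B cells (34.4%, 22.9 to 47.3), 7 of the 38 with Epcam and 15 of the 26 B cells without Epcam (57.7%, 36.9 to 76.6), 0 of 28 T cells without Epcam (up to 10.7%) and 0.123% of other cells. The list is not confined to B cells: Rgs13, one of its genes, gave 11 UMIs in B cells and 902 in other WT cells.

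Naive B cell genes were sparse, while some plasma cell genes were frequent. Fcer2a, which encodes CD23 of resting B cells, gave 2 UMIs in the 64 B cells, and Ccr7, a homing receptor of recirculating lymphocytes, gave 0. Jchain, the J chain of secreted IgA and IgM, stood at 352 CPM in B cells, in 36 of 64 cells, and Mzb1, a chaperone of antibody assembly, at 175 CPM in 37 cells. Of 5 plasma cell genes compared, only Mzb1 was at least 4-fold lower in T cells. Jchain ranged from 0 through 3 to 21 UMIs in the 26 B cells without Epcam. The surface plasma cell marker Sdc1 gave 0 UMIs in those 26 cells and 62.5 CPM in other WT cells. Of the 90 Jchain UMIs in T cells, 89 were in 1 cell without Epcam, which also held all 17 Mzb1 UMIs of the T cells. Without that cell the T cells held 1 Jchain UMI. Immunoglobulin constant region genes were not analysed here.

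**Figure D4:**
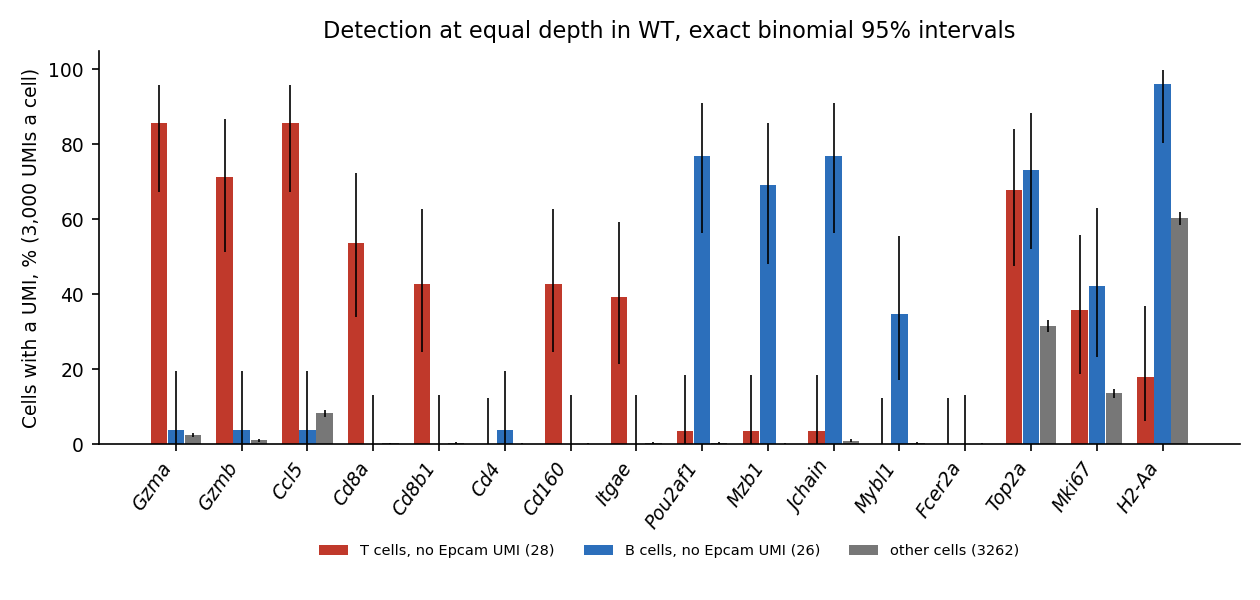
Share of WT cells with a UMI (y axis, %) after every cell was thinned to 3,000 UMIs, for T cells without Epcam (28), B cells without Epcam (26) and other cells (3262), with exact binomial 95% intervals. Gzma is at 85.7% in T cells and Pou2af1 at 76.9% in B cells, while Top2a is at 67.9% and 73.1% in both.

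Genes of cell division were detected in both T and B cells. Top2a, the topoisomerase of dividing cells, was detected in 67.9% of T cells (47.6 to 84.1) and 73.1% of B cells (52.2 to 88.4) without Epcam at 3000 UMIs per cell, and in 31.5% of the other cells. Mki67 was detected in 35.7%, 42.3% and 13.5%. The 14 cell cycle genes summed to 7641 CPM in T cells without Epcam, 6603 CPM in B cells without Epcam and 2197 CPM in other cells, with Hmgb2 the most abundant in each. All 14 could be compared between T and B cells and none differed by 4-fold. In T cells with Epcam the same genes summed to 1895 CPM.

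MHC class II genes, whose products present antigen to CD4 T cells, were higher in B than in T cells without Epcam. H2-Aa stood at 905 CPM in those B cells and 80.9 CPM in those T cells, a log2 ratio of T over B of -3.42 (-4.58 to -2.55), and H2-Ab1 at 1206 and 89.0 CPM. Of 5 genes compared there, 4 were at least 4-fold lower in T cells. Over all T and B cells only 2 of 8 were, and H2-Aa stood at 259 and 594 CPM. Epithelial cells of this library also held these transcripts, with H2-Aa at 395 CPM in other cells and at 299 CPM in T cells with Epcam. H2-Ob, a chain that tunes peptide loading in B cells, gave 25 UMIs in B cells and 0 in T cells.

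Some genes that other cells nearly lacked were found in both T and B cells. Compared with the other WT cells, 252 of 5804 genes were at least 4-fold higher in the lymphocytes (4.34%), a comparison the rule also used. Ikzf3, which encodes the lymphocyte factor Aiolos, gave 32 UMIs in T cells and 30 in B cells, with a T over B log2 ratio of -0.24 (-1.0 to 0.53), and 10 UMIs in all other cells. Cyfip2 gave 30 UMIs in T and 41 in B cells, and Bcl2a1d gave 27 and 9, against 13 and 3 in the others. Klhl6, with 60 UMIs in lymphocytes and 3 elsewhere, was mostly from B cells (55 UMIs). Il21r, the interleukin 21 receptor, gave 31 and 25 UMIs in T and B cells. Tnfaip8 itself stood at 26.9 CPM in T cells (18 UMIs), 41.4 CPM in B cells (22 UMIs) and 8.99 CPM in other cells, and the T over B log2 ratio was -0.61 (-1.60 to 0.35). In the cells without Epcam it stood at 80.9 CPM in T and 103 CPM in B cells. Its relative Tnfaip8l2, which encodes TIPE2, gave 4 UMIs in T and 6 in B cells.

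Markers of other blood and tissue cells were near 0 in the cells without Epcam. Of 14 myeloid genes, 12 had no UMI in the T cells without Epcam and 12 had none in the B cells, and Lyz2 was at 0 in both. The 8 innate lymphoid genes summed to 5 UMIs in those T cells, with Ncr1 at 0 and Il7r at 4, and to 0 in those B cells. The 10 genes of stroma, endothelium and blood summed to 3 and 0 UMIs. Mast cell genes were the exception: Mcpt1 and Mcpt2, proteases of mucosal mast cells, gave 128 and 76 UMIs in T cells, of which 126 and 75 were in 1 cell that held 1 Cpa3 UMI and 12 Gzma UMIs. Among cells with Epcam, a single B cell held 362 of 363 Pyy UMIs and 282 of 283 Nts UMIs, hormones of enteroendocrine cells. Over 1000 defensin UMIs, the product of Paneth cells, were found in 4 T and 3 B cells, all with Epcam, and 3 cells held 82.1% of the Defa24 UMIs of the T cells. Defa24 was also present at low level in nearly every barcode, with 207 UMIs over 27 of the 28 T cells without Epcam. The enterocyte list (9 genes compared), the goblet and Paneth list (10) and the list of epithelial partners of lymphocytes (8) had no gene 4-fold apart between all T and all B cells.

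Lymphocyte RNA was also counted outside the chosen cells. The WT lymphocytes held 79.5% of all Gzma UMIs of the library, 82.1% of Gzmb, 51.8% of Ccl5, 81.9% of Pou2af1 and 89.3% of Ms4a1. Beyond them, 21 WT cells held 20 or more UMIs of Gzma, Gzmb and Ccl5 together, against 47 of the 76 T cells, and all 21 carried Epcam. At least 1 of the 10 rule genes was found in 474 WT cells that were not members.

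Lymphocytes were a smaller share of the *Tipe0*-/- library. In WT their share was 4.12% (3.47 to 4.84), and in *Tipe0*-/- it was 1.45% (0.970 to 2.07). T cells made up 2.23% (1.76 to 2.79) and 0.798% (0.457 to 1.29), and B cells 1.88% (1.45 to 2.40) and 0.648% (0.345 to 1.11). These intervals do not overlap, but each genotype is 1 library, so the spread between mice is not known and genotype and library cannot be told apart. With only cells at or above 3562 UMIs, the lowest depth in *Tipe0*-/-, the shares were 3.84% and 1.45%. T cells without Epcam numbered 28 in WT (0.823%) and 0 of 2006 in *Tipe0*-/-, which allows a share of up to 0.150%, while B cells without Epcam numbered 26 (0.764%) and 7 (0.349%). All 16 *Tipe0*-/- T cells carried Epcam, and their median of the 12 epithelial genes was 99.4 per 10000 UMIs (13.8 to 176). The lowest of these cells had 7 rule genes and held 67 of the 210 Gzma UMIs of the *Tipe0*-/- T cells.

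The comparison of granzymes between genotypes depended on which WT T cells were used. Gzma stood at 1485 CPM in the 16 *Tipe0*-/- T cells (210 UMIs, from 0 through 1.5 to 67 per cell) and 2721 CPM in all WT T cells, and the ratio of the first to the second was -0.87 on the log2 scale (-1.09 to -0.67). Against the 48 WT T cells with Epcam, at 853 CPM, the ratio was 0.80 (0.56 to 1.04), so the direction of the sums reversed. This rests on few cells: 3 of the 16 held 73.3% of the *Tipe0*-/- Gzma UMIs, the median per cell was 1.5 against 5 in WT T cells with Epcam, and 9 of 16 against 33 of 48 cells had a UMI. Gzmb stood at 297 CPM against 823 CPM in all WT T cells and 338 CPM in those with Epcam, with log2 ratios of -1.45 (-1.96 to -1.02) and -0.17 (-0.70 to 0.31). Ccl5 stood at 2752 CPM against 2713 and 2072 CPM, with log2 ratios of 0.02 (-0.14 to 0.18) and 0.41 (0.24 to 0.58). Cd7 was at 269 CPM against 184 and 103 CPM, with log2 ratios of 0.56 (-0.02 to 1.08) and 1.39 (0.75 to 2.01), and 3 of the 16 cells held 71.1% of its *Tipe0*-/- UMIs. The part of epithelial RNA in these differences was not tested.

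Across genes, 514 of 4571 were at least 2-fold higher in *Tipe0*-/- T cells (11.2%) and 359 at least 2-fold lower (7.85%), by the log2 ratio of sums with no test. The median log2 ratio of all genes was 0.27, and the share of these genes that were higher, 58.9%, was 33.0% once the ratios were centred on that median. Mitochondrial genes took 9.94% of the UMIs of *Tipe0*-/- T cells and 6.78% in WT T cells (8.56% and 6.59% over all cells). With totals that left mitochondrial genes out, 949 genes passed 2-fold, 63.4% of them higher in *Tipe0*-/-. The part of RNA quality in these differences was not tested. The residence and homing list had 4 of 7 compared genes 2-fold lower and none higher, and the T cell receptor list 3 of 10 lower and none higher, with median log2 ratios of -1.18 and -0.64. Against WT T cells with Epcam the direction was lost: the medians were 0.69 over the 2 residence genes and 0.40 over the 7 receptor genes that could still be compared, where that of all genes was 0.36. Summed over all its genes, the residence list held 248 CPM in *Tipe0*-/- and 262 CPM in those WT cells. The receptor list held 729 and 550 CPM. Markers of other cell types moved as well: of 9 enterocyte genes compared, 7 were 2-fold lower in *Tipe0*-/- T cells and none higher, with a median log2 ratio of -1.50 (-1.77 against WT T cells with Epcam). The enterocyte list summed to 28838 CPM in *Tipe0*-/- and 59615 CPM in WT T cells, and to 46781 and 72264 CPM in the other cells of each library. Of 10 goblet and Paneth genes, 4 were higher and 5 lower. Their part in the differences of the T cell lists was not tested. The 5 genes furthest up were Zg16, Serpina1b, Rfc4, Atoh1 and Clic6, the last 4 with 13 to 16 UMIs in *Tipe0*-/- T cells. Zg16, a product of goblet cells, stood at 8340 CPM in *Tipe0*-/- and 528 CPM in WT T cells, and 3 of the 16 cells held 92.5% of its UMIs. Defa24, a Paneth cell defensin on the fixed list, stood at 1075 and 37097 CPM, with 82.1% of the WT UMIs in 3 cells. AY761184, also a defensin gene, gave 1 UMI against 1156.

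The 13 *Tipe0*-/- B cells also held B cell identity genes. Cd79a, a rule gene, stood at 592 CPM in *Tipe0*-/- and 246 CPM in WT. Pou2af1 stood at 255 CPM and 325 CPM, a log2 difference of -0.33 (-1.02 to 0.26), but 8 of the 13 cells had none and 3 cells held 80.0% of its UMIs. Ebf1 stood at 327 and 209 CPM and was detected in 11 of the 13. Top2a was detected in 11 of 13 cells and at least 3 germinal centre genes in 3, against 38 and 39 of 64 in WT. Jchain was detected in 2 of 13 cells, 1 of which held 30 of its 31 UMIs. One *Tipe0*-/- B cell with Epcam held 18 UMIs of Lyz2, a lysozyme gene of myeloid cells. Tnfaip8 gave 1 UMI in *Tipe0*-/- T cells and 1 in *Tipe0*-/- B cells.

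**Figure D5:**
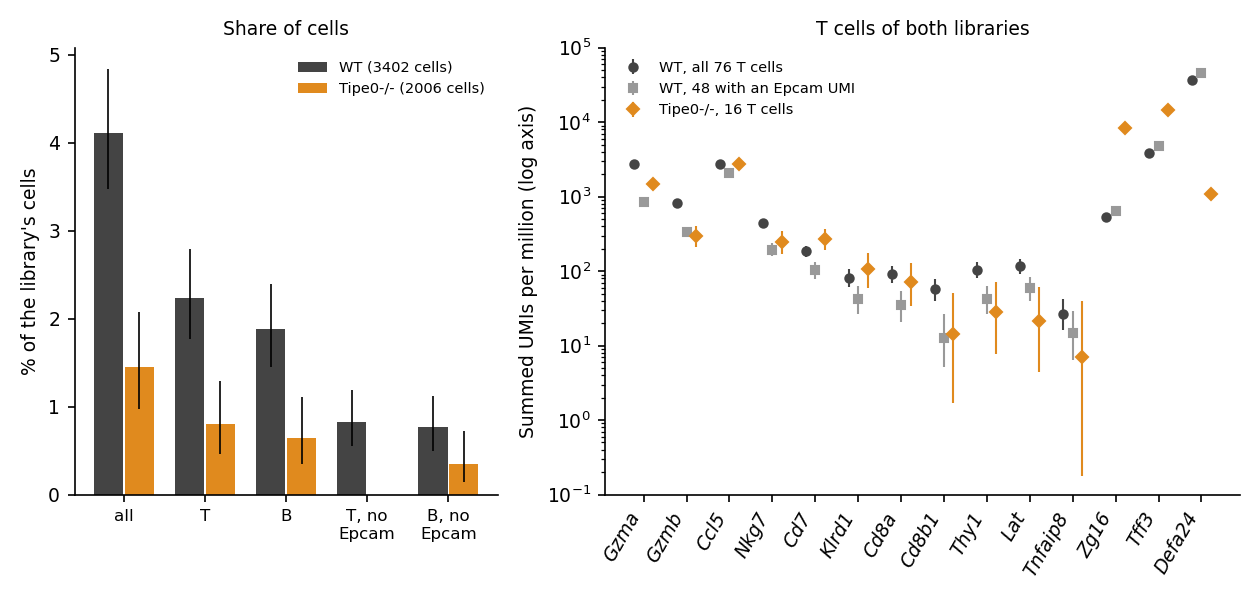
Left, share of each library's cells called lymphocytes (y axis, %), with exact binomial 95% intervals; WT is at 4.12% and *Tipe0*-/- at 1.45%, with no T cell without Epcam in *Tipe0*-/-. Right, summed UMIs as CPM (log axis) in T cells of WT (all and with an Epcam UMI) and *Tipe0*-/-, with Poisson 95% intervals; Gzma in *Tipe0*-/- (1485) lies between the values of WT T cells with Epcam (853) and of all WT T cells (2721).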

How the data were processed

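Ileal epithelial cells were captured with Chromium Single Cell 3′ reagents. The authors deposited raw UMI counts per gene and cell for 1 WT and 1 *Tipe0*-/- library, after Cell Ranger alignment to mm10. The methods also equalize depth between libraries, a step that these matrices precede. The labels name collagenase and dispase for digestion, and the methods DNase I and dispase. Every deposited cell was kept, no doublet caller was run and no barcode was removed as a doublet.

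The members and the 29 gene lists were chosen with earlier results of these data known. The lists named 325 genes, of which 304 were in the counts. Genes named were the rule genes, list members and the widest log2 ratios among genes with at least 20 UMIs (12 per direction, 5 for genotype), together with Tnfaip8. Where a symbol had 2 identifiers (Cd37, Itgam), the GENCODE one was used. Sums were scaled to CPM, with exact Poisson intervals. Log2 ratios had 0.5 added to each sum and intervals from the exact binomial distribution, and shares had Clopper-Pearson intervals, all at 95%. The limit given for a share or level of 0 is instead 3 counts of the total. Each cell was also thinned to 3000 UMIs. Steps were tested on simulated data. Python 3.11.15, numpy 2.4.6, scipy 1.17.1, pandas 2.3.3 and matplotlib 3.10.9 were used. A few genes that the rule covers are not reported here.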

Additional observations from a re-analysis of the deposited data

How the results depend on the processing

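Depth limited single-cell calls: the T and B cells without Epcam had median depths of 3967.5 and 4309.5 UMIs, and the *Tipe0*-/- values rest on 16 T and 13 B cells. No paired analysis was possible because each genotype had 1 library. The planned shares of cells with Trdc and with Ighd could not be computed, and those genes were not analysed here.

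The WT lymphocyte share of 4.12% became 6.03% with 2 rule genes required, 2.79% with 4, 2.38% after thinning to 3000 UMIs and 1.59% without members that carry Epcam. The *Tipe0*-/- share of 1.45% became 0.947% with 4 rule genes, 0.698% after thinning and 0.349% without Epcam carriers, and the T share of its lymphocytes fell from 55.2% to 0. The share of WT T cells with Cd8a, 42.1%, became 30.5%, 54.5%, 55.3% and 71.4% in the same order of settings as for WT, and that of WT lymphocytes with Epcam, 61.4%, became 72.2%, 48.4% and 37.0%. Genes higher in T than in B cells (78) numbered 191 after thinning, 34 with a minimum of 50 UMIs and 433 with no minimum beyond 1 UMI. Genes higher in B cells (68) numbered 44 without Epcam carriers, 21 with 50 UMIs and 501 with no minimum. Genes higher in lymphocytes than in other cells (252) numbered 97 and 1488 under those minimums. Genes past 2-fold between genotypes in T cells (873) numbered 514 after thinning, 265 and 4091, and the share of them that were higher in *Tipe0*-/- (58.9%) was 37.2%, 44.5% and 72.1%, or 33.0% when centred on the median. In each case the cause was not tested, beyond the fewer or more cells and genes that the setting keeps. The limit to cells of at least 3562 UMIs and the comparison with WT T cells that carry Epcam were chosen after seeing the data.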
